A study of Mus musculus with 12 samples.

Results

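Endotoxin, the lipopolysaccharide of the outer membrane of Gram-negative bacteria, is read by a small set of host genes, and 10 of them are described here in the mouse jejunum: Tlr4, Cd14, Ly96, Lbp, Myd88, Tnf, Il1b, Nfkbia, Tnfaip3 and Cxcl1. They were chosen by name, through the array probes whose RefSeq accession maps to these symbols, out of 46522 genes and unnamed probes on the array. The 10 genes have 15 probes. Of the 27565 genes and unnamed probes bright enough to be tested, 9 are from this set, and the tenth, Cxcl1, was above background on 8 of 12 arrays and was not tested. The arrays are of male mice, 3 in each of 4 groups. IAP-KO mice (Akp3-/-, lacking the gene of an intestinal alkaline phosphatase) were dosed by mouth, daily for 14 days, with IIAEK, a pentapeptide that lowers cholesterol according to the labels, at 600 mg per kg of body weight, or with vehicle, which was carboxymethylcellulose sodium salt at 5 g/L. Wild-type mice were given IIAEK at the same dose, or the same vehicle. Mice were 7 weeks old, per the series' design text, and all were fasted for 8 h before the jejunum was taken. The knockout is given as Akp3-/- with no promoter or cell type named. Alpi, a further intestinal alkaline phosphatase gene, was still expressed in it, at levels given below. Groups are called knockout or wild type, on IIAEK or on vehicle, and a replicate is 1 mouse on 1 array.

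Lipopolysaccharide is handed by the plasma protein LBP to CD14, which loads it onto the receptor pair of TLR4 and MD-2 (the product of Ly96). The activated receptor recruits the adaptor MyD88, and the kinase cascade that follows releases NF-kB from its inhibitor IkB-alpha (Nfkbia). NF-kB then switches on cytokines and chemokines such as TNF, IL-1 beta and CXCL1, and also its own brakes, Nfkbia and the ubiquitin-editing enzyme A20 (Tnfaip3). Intestinal alkaline phosphatase is known to remove phosphate from the lipid A part of lipopolysaccharide, which weakens it as a TLR4 ligand. The comparison of knockout with wild type thus bears on whether transcripts of this pathway differ when Akp3 is missing, and that of IIAEK with vehicle on whether the peptide changes them.

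The promoters of some of these genes hold the letters of an NF-kB site. RefSeq promoter windows on assembly GRCm38.p6 were at hand for 6 of the 10 genes, with 2 start sites for Tnfaip3. They were searched, in the 250 bases before the start site and on both strands, for a form of the NF-kB site that reads GGG, any 3 bases and then TTCC (on the opposite strand GGAA, any 3 bases and CCC). The motif was present for Cxcl1, Nfkbia and both start sites of Tnfaip3, and these letters were not in the windows of Tnf, Il1b and Myd88. Over all 32851 windows of this length, 1527 (4.65%) held it. The windows of the inducible chemokine and of both NF-kB brakes are shown 5′ to 3′ on the gene's strand, ending at the base before the start site, with matches in capitals; Cxcl1 lies at chr5:90890995-90891244 (+), Nfkbia at chr12:55492648-55492897 (-) and the upstream window of Tnfaip3 at chr10:19015411-19015660 (-).
Cxcl1: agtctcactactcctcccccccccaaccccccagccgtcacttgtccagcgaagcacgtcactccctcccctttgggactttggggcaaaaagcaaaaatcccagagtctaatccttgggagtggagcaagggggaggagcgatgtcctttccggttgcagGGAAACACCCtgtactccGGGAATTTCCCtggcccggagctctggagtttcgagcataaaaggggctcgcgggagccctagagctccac
Nfkbia: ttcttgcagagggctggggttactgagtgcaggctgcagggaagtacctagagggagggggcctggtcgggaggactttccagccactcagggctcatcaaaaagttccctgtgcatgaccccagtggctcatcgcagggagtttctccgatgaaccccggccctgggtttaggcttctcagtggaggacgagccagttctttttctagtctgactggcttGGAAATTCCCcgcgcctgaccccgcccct
Tnfaip3: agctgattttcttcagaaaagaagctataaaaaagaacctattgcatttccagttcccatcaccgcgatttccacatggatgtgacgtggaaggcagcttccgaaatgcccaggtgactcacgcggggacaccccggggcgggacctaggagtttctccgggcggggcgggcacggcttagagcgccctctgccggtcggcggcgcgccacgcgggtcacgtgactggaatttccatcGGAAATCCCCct
In Cxcl1 the capitals nearer the start site hold 2 overlapping matches, 1 on each strand. A match describes the letters only, and binding was not measured.

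Akp3 itself was well above background on 0 of 6 knockout arrays and on 5 of 6 wild-type arrays. In wild-type mice its level was -4.39, -1.61 and -1.74 on IIAEK and -3.81, -4.43 and -6.42 on vehicle. The lowest level of any spot well above background was -5.76 to -5.48 on the wild-type vehicle arrays. The exception among wild-type arrays was vehicle replicate 3, at -6.42, inside the knockout range of -7.33 to -5.96. Glrp1, the only gene that passed the test for genotype over both treatments (limma adjusted p = 0.00885), lay at -7.96 to -6.33 on the 6 knockout arrays, none well above background, and at -4.95 on that wild-type array, within the wild-type range of -5.26 to -4.47. That test counted this array as wild type, so the level of Glrp1 on it is no independent check of the label. Alpi lay at 3.99 to 4.84 in knockout mice on IIAEK and at 4.44 to 5.06 in knockout mice on vehicle. In wild-type mice Alpi was at 5.42 to 5.81 on IIAEK and 4.68 to 5.31 on vehicle. On IIAEK its level was thus lower in the knockout with no overlap, while on vehicle the genotypes overlapped. Levels throughout are log2 of the processed signal after each array's own 75th percentile was set to 0, and levels of different probes are not compared with each other. The 75th percentile itself lay at a signal of 575 to 816, with 59.99% to 67.1% of an array's spots well above background. All 14 enterocyte markers were above background on every array. Arrays lay on 2 slides, with 4 knockout and 2 wild-type arrays on slide 1 and the reverse on slide 2. Slide 1 thus held 1 array of each wild-type group, and slide 2 held 1 array of each knockout group. A genotype difference on 1 treatment within a slide therefore rests on a single array on 1 side. Genes of the exocrine pancreas were high on 2 arrays, with a mean level of 3.34 on knockout vehicle replicate 3 and 7.58 on wild-type IIAEK replicate 3, against -3.68 to 0.19 on the other arrays, so results that rest on these arrays are given with and without them.

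**Figure D1:**
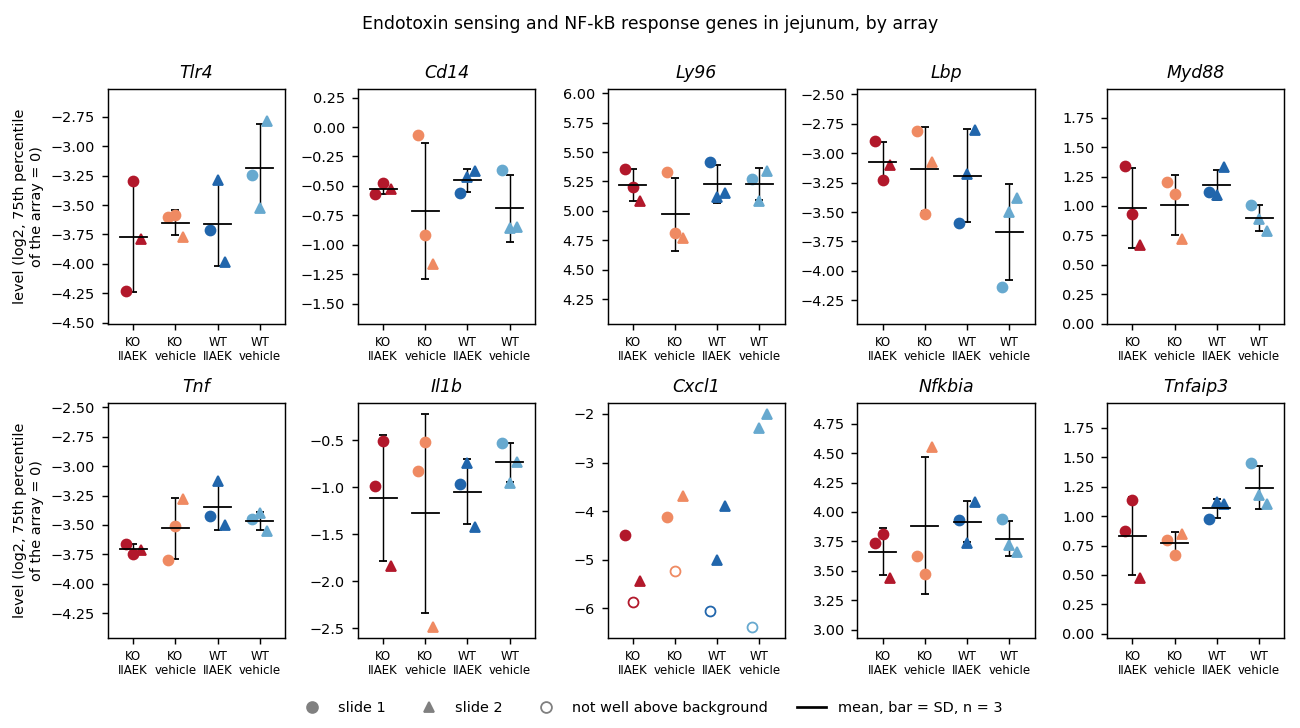
Level of each of the 10 genes on every array (log2, 75th percentile of the array at 0), by group, with circles for slide 1, triangles for slide 2, hollow symbols where the probe was not well above background, and, where all 3 arrays of a group were well above background, their mean and SD. Most groups overlap for most genes; Tnfaip3 was between 0.67 and 0.85 in knockout mice on vehicle, below its 1.10 to 1.45 in wild-type mice on vehicle.

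No receptor gene passed the test in any comparison. Tlr4 encodes the signalling receptor. Its level was -4.23, -3.29 and -3.79 in knockout mice on IIAEK and -3.60, -3.58 and -3.77 in knockout mice on vehicle. It was -3.71, -3.29 and -3.99 in wild-type mice on IIAEK and -3.25, -3.52 and -2.79 in wild-type mice on vehicle. All 3 knockout vehicle arrays were thus below all 3 wild-type vehicle arrays, by a gap smaller than the spread within either group, while the other groups overlapped. The means were -3.77 ± 0.47 (SD, n = 3) in knockout mice on IIAEK, -3.65 ± 0.11 in knockout mice on vehicle, -3.66 ± 0.35 in wild-type mice on IIAEK and -3.18 ± 0.37 in wild-type mice on vehicle. Wild-type vehicle was the highest of the 4, and the other 3 did not differ beyond their spread. In whole tissue, fewer cells that express a gene and less RNA per cell cannot be told apart, here and for the other genes. The other Tlr4 probe was below background on all 12 arrays.

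Cd14, the co-receptor that delivers lipopolysaccharide, was at -0.57, -0.48 and -0.53 in knockout mice on IIAEK and at -0.06, -0.92 and -1.16 in knockout mice on vehicle. Wild-type mice had -0.56, -0.42 and -0.38 on IIAEK and -0.37, -0.86 and -0.85 on vehicle. The groups overlapped, and the feature of Cd14 was its spread: the SD was 0.05 on IIAEK and 0.58 on vehicle in the knockout, and 0.10 on IIAEK and 0.28 on vehicle in wild type. The difference in spread was not tested. The means were -0.53 in knockout mice on IIAEK, -0.71 in knockout mice on vehicle, -0.45 in wild-type mice on IIAEK and -0.69 in wild-type mice on vehicle. Both IIAEK groups thus ranked above both vehicle groups, by steps within the spread. Its other probe followed the same course, with r = 0.97 between the probes over the 12 arrays.

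Ly96 encodes MD-2, the subunit of the receptor that binds lipid A. Its level was 5.36, 5.20 and 5.09 in knockout mice on IIAEK and 5.33, 4.81 and 4.77 in knockout mice on vehicle. In wild-type mice it was 5.41, 5.12 and 5.15 on IIAEK and 5.27, 5.08 and 5.34 on vehicle. It varied least of the 10 genes, by 1.57-fold between the lowest and the highest array. Both arrays below 5 were of knockout mice on vehicle, whose mean was 4.97 ± 0.31, and the other 3 groups had means of 5.22 to 5.23. A probe for the other Ly96 transcript correlated with it at r = 0.74 and differed by -0.66 between knockout and wild-type means on vehicle.

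Lbp, the carrier of lipopolysaccharide in plasma, had levels of -2.89, -3.23 and -3.10 in knockout mice on IIAEK and of -2.81, -3.52 and -3.08 in knockout mice on vehicle. In wild-type mice the levels were -3.59, -3.18 and -2.80 on IIAEK and -4.13, -3.50 and -3.38 on vehicle. The means were -3.08 ± 0.17 in knockout mice on IIAEK, -3.13 ± 0.36 in knockout mice on vehicle, -3.19 ± 0.40 in wild-type mice on IIAEK and -3.67 ± 0.41 in wild-type mice on vehicle. Wild-type vehicle was thus the lowest group, its replicate 1 was the lowest of all 12 arrays, and the other 3 means lay within their spread. The groups overlapped in every comparison of genotype or treatment.

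Myd88, the adaptor shared by most Toll-like receptors and the IL-1 receptor, was at 1.34, 0.93 and 0.67 in knockout mice on IIAEK and at 1.20, 1.10 and 0.72 in knockout mice on vehicle. The wild-type levels were 1.12, 1.10 and 1.33 on IIAEK and 1.01, 0.89 and 0.79 on vehicle. Knockout means were 0.98 ± 0.34 on IIAEK and 1.01 ± 0.25 on vehicle, with arrays that overlapped. The wild-type IIAEK arrays all lay above the wild-type vehicle arrays, with means of 1.18 ± 0.13 on IIAEK and 0.90 ± 0.11 on vehicle, and both knockout means fell between these.

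Of the induced cytokines, Tnf and Il1b were measured on all arrays. Tnf, the early pro-inflammatory cytokine of macrophages, was at -3.66, -3.75 and -3.71 in knockout mice on IIAEK and at -3.80, -3.51 and -3.28 in knockout mice on vehicle. Wild-type levels of Tnf were -3.42, -3.13 and -3.50 on IIAEK and -3.45, -3.40 and -3.55 on vehicle. The 3 knockout IIAEK arrays, with a mean of -3.71 ± 0.04, were below the 3 wild-type IIAEK arrays, with a mean of -3.35 ± 0.20, and the other pairs of groups overlapped, except that the knockout IIAEK arrays were also below all 3 wild-type vehicle arrays (-3.46 ± 0.08). The other Tnf probe, above background on 9 of 12 arrays, correlated with this one at only r = 0.18 over the arrays, so the level of Tnf rests on which probe is read. It was not well above background on knockout IIAEK replicate 3, knockout vehicle replicate 3 and wild-type vehicle replicate 1, so no difference is given for it.

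Il1b, the inflammasome-processed cytokine of myeloid cells, varied most of the tested genes, by 3.96-fold between the lowest and the highest array. Its level was -0.99, -0.51 and -1.84 in knockout mice on IIAEK and -0.82, -0.52 and -2.49 in knockout mice on vehicle. In wild-type mice it was -0.97, -0.74 and -1.43 on IIAEK and -0.53, -0.95 and -0.73 on vehicle. Replicate 3 was the lowest array of its group in the first 3 of these groups, and knockout vehicle replicate 3, the lowest of all, is also 1 of the 2 arrays high in pancreas genes. Both probes of Il1b showed this course (r = 0.97). The means were -1.11 ± 0.67 in knockout mice on IIAEK, -1.28 ± 1.06 in knockout mice on vehicle, -1.05 ± 0.35 in wild-type mice on IIAEK and -0.73 ± 0.21 in wild-type mice on vehicle, and no neighbours in order of level differed beyond their spread.

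Cxcl1, a neutrophil-attracting chemokine, was not well above background on 4 of 12 arrays. In knockout mice it was at -4.49 and -5.44 in replicates 1 and 3 on IIAEK, with replicate 2 not well above background at -5.88, and at -4.12 and -3.69 in replicates 1 and 3 on vehicle, with replicate 2 not well above background at -5.23. In wild-type mice it was at -5.01 and -3.90 in replicates 2 and 3 on IIAEK, with replicate 1 not well above background at -6.06. In wild-type mice on vehicle it reached -2.29 and -1.99 in replicates 2 and 3, while replicate 1 was not well above background at -6.39. The 2 highest arrays and 1 of the 4 arrays not well above background were therefore in the same group. Each group had 2 of 3 arrays above background, so no difference or test is given.

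Both brakes were measured on all arrays. Nfkbia, which encodes the inhibitor that holds NF-kB in the cytoplasm, was at 3.73, 3.81 and 3.44 in knockout mice on IIAEK and at 3.63, 3.47 and 4.55 in knockout mice on vehicle. Wild-type mice had 3.94, 3.74 and 4.08 on IIAEK and 3.94, 3.72 and 3.66 on vehicle. Its highest array, knockout vehicle replicate 3, is the one with the lowest Il1b and with high pancreas genes, and the other pancreas-high array, wild-type IIAEK replicate 3, had the next highest level. The part of pancreas tissue in these levels was not tested. The means were 3.66 ± 0.20 in knockout mice on IIAEK, 3.88 ± 0.58 in knockout mice on vehicle, 3.92 ± 0.17 in wild-type mice on IIAEK and 3.77 ± 0.15 in wild-type mice on vehicle. No neighbours in this order of means differed beyond their spread, and the place of knockout vehicle rests on replicate 3, without which knockout IIAEK stood 0.11 above knockout vehicle.

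Tnfaip3 encodes A20, which ends TLR4 and TNF receptor signalling by editing ubiquitin chains. Its level was 0.87, 1.13 and 0.48 in knockout mice on IIAEK and 0.79, 0.67 and 0.85 in knockout mice on vehicle. The levels in wild-type mice were 0.97, 1.12 and 1.11 on IIAEK and 1.45, 1.18 and 1.10 on vehicle. The knockout arrays lay below every wild-type array in 5 of 6 cases, with knockout IIAEK replicate 2 as the exception, and on vehicle the genotypes did not overlap. The means were 0.83 ± 0.33 in knockout mice on IIAEK, 0.77 ± 0.09 in knockout mice on vehicle, 1.07 ± 0.08 in wild-type mice on IIAEK and 1.24 ± 0.18 in wild-type mice on vehicle, so that both knockout groups ranked below both wild-type groups.

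The knockout was set against wild type over both treatments, with 6 arrays of each genotype, to ask whether transcripts of endotoxin sensing follow the loss of Akp3. None of the 9 tested genes passed 0.05 after adjustment over all genes, where 1 gene of 27565 did (0.00363%). At an unadjusted p under 0.05 there was 1 of the 9, Tnfaip3, against 5.37% of all tested genes. Tnfaip3 was 0.78-fold in the knockout relative to wild type (log2 change -0.36, SE 0.12, 95% confidence interval -0.62 to -0.09, unadjusted p = 0.0135, limma adjusted p = 0.799). It differed by -0.34 within slide 1 and by -0.46 within slide 2, and by -0.27 to -0.43 with any 1 array left out.

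The other 8 genes showed smaller or more variable differences. Lbp had the only value above 0, at 0.33 (SE 0.18, interval -0.08 to 0.73), and it was 0.75 within slide 1 and 0.12 within slide 2. Tlr4 differed by -0.29 (SE 0.19, interval -0.70 to 0.12), which was -0.17 when knockout IIAEK replicate 1 was left out and -0.10 with normexp background correction. Tnf differed by -0.21 (SE 0.11, interval -0.45 to 0.03), which was -0.14 when knockout vehicle replicate 1 was left out and -0.07 with normexp. Neither gene passed in any of these settings. Il1b differed by -0.30 (SE 0.33, interval -1.02 to 0.42), and the slides diverged for it, with 0.04 within slide 1 and -1.20 within slide 2. Without knockout vehicle replicate 3 its difference was -0.00068. Ly96 differed by -0.14 (SE 0.12), Nfkbia by -0.07 (SE 0.18), Cd14 by -0.05 (SE 0.17) and Myd88 by -0.04 (SE 0.13). Without the 2 pancreas-high arrays Cd14 stood at 0.08 and Myd88 at 0.07, and Myd88 was 0.08 within slide 1 and -0.33 within slide 2. In count, 1 gene lay above 0 and 8 below, with a median of -0.14. Over all tested genes the median was -0.0044, with 48.8% above 0. No genotype groups of 6 were free of overlap for any of the 9, against 0.359% of all genes. For the 8 genes other than Il1b, the intervals end within a log2 change of 0.73 in either direction, and that of Il1b reaches -1.02.

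**Figure D2:**
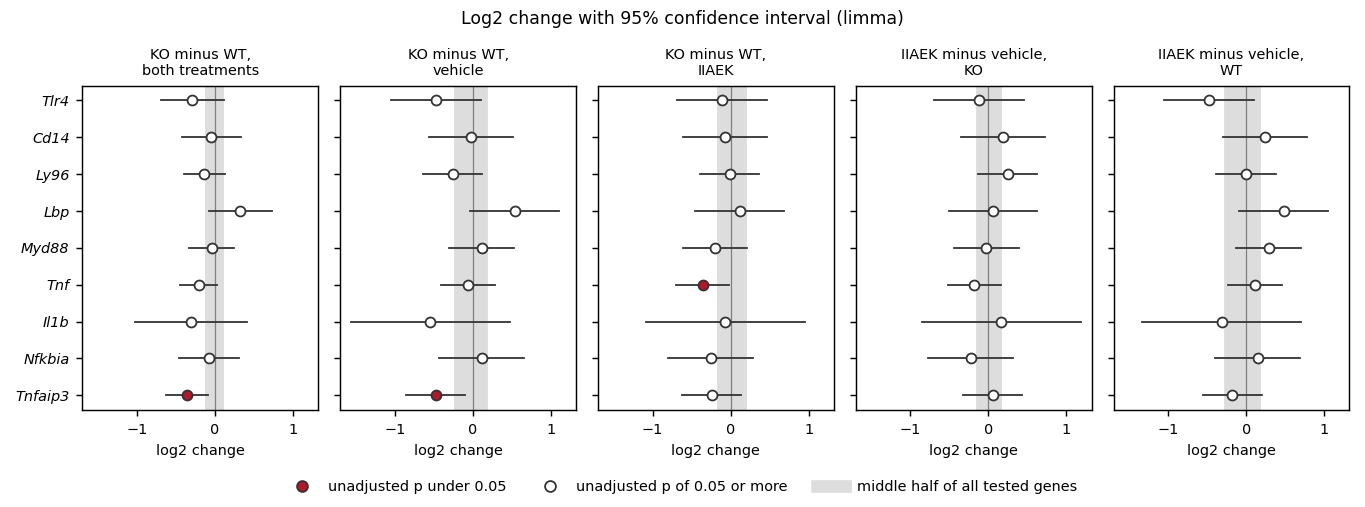
Log2 change of the 9 tested genes in 5 comparisons with 95% confidence intervals from limma, red where the unadjusted p was under 0.05, over a grey band that spans the interquartile range of all tested genes. Tnfaip3 stands at -0.36 in knockout against wild type over both treatments and at -0.47 on vehicle, and Tnf at -0.36 on IIAEK; no gene passed after adjustment.

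On vehicle alone, where the knockout is set against wild type with no peptide given, 0 of the 9 genes and 0% of all genes passed after adjustment. At an unadjusted p under 0.05 there was 1 of 9, against 11.4% of all genes, again Tnfaip3 with a log2 change of -0.47 (SE 0.17, interval -0.85 to -0.09, unadjusted p = 0.0188, limma adjusted p = 0.423). It was -0.72 within slide 1 and -0.29 within slide 2. Groups did not overlap for 2 of 9, Tnfaip3 and Tlr4, both lower in the knockout, against 23.7% of all genes. Tlr4 differed by -0.47 (SE 0.26, limma adjusted p = 0.486), and by -0.27 without wild-type vehicle replicate 3, the array on which Akp3 was below background. The ends of the range were Lbp at 0.54 (SE 0.26, limma adjusted p = 0.452) and Il1b at -0.54 (SE 0.46, limma adjusted p = 0.626). For Lbp, slide 1 alone gave 0.97 and slide 2 alone 0.36, and leaving out wild-type vehicle replicate 1 gave 0.30. For Il1b, slide 1 alone gave -0.14 and slide 2 alone -1.65, and leaving out knockout vehicle replicate 3 gave 0.06.

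On IIAEK, again 0 of the 9 genes and 0% of all genes passed. The gene with an unadjusted p under 0.05 was Tnf, 1 of 9 against 7.66% of all genes, with a log2 change of -0.36 (SE 0.16, interval -0.70 to -0.02, unadjusted p = 0.0415, limma adjusted p = 0.648). It was also the 1 gene of 9 without overlap, against 9.39% of all genes. Its difference was -0.28 within slide 1, -0.40 within slide 2, and -0.12 with normexp background correction. The mean of both probes gave -0.80, which includes the dimmer probe on arrays where it was not well above background. Of the 9 genes, 8 lay below 0, and the exception was Lbp at 0.11 (SE 0.26), which was 0.53 on slide 1 alone, -0.11 on slide 2 alone, and -0.09 when wild-type IIAEK replicate 1 was left out. Tnfaip3, the gene set apart on vehicle, differed here by -0.24 (SE 0.17). That difference was 0.03 on slide 1 alone, -0.64 on slide 2 alone and -0.06 when knockout IIAEK replicate 3 was left out, and the 2 genotype differences were not shown to differ (interaction 0.23, SE 0.24, limma adjusted p = 0.647).

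IIAEK was set against vehicle in each genotype to ask whether the peptide moves these genes. In the knockout 0 of 9 passed, as did 0% of all genes, and 0 of 9 had an unadjusted p under 0.05, against 4.42% of all genes. No gene was free of overlap, against 7.53%. The changes ran from -0.22 for Nfkbia (SE 0.25) to 0.25 for Ly96 (SE 0.17). That of Nfkbia was 0.22 on slide 1 alone and -1.12 on slide 2 alone, and 0.11 when knockout vehicle replicate 3 was left out. In wild type 0 of 9 passed, as did 0% of all genes, and 0 of 9 had an unadjusted p under 0.05, against 13% of all genes. The changes ran from -0.48 for Tlr4 (SE 0.26, interval -1.05 to 0.10) to 0.48 for Lbp (SE 0.26, interval -0.09 to 1.05). Without wild-type vehicle replicate 3 that of Tlr4 was -0.28, and without wild-type vehicle replicate 1 that of Lbp was 0.25. Myd88 was the 1 gene of 9 without overlap between IIAEK and vehicle, against 25.3% of all genes, at 0.29 (SE 0.19, limma adjusted p = 0.467), with 0.11 within slide 1 and 0.37 within slide 2. The 3 wild-type vehicle arrays serve here and in the genotype comparison on vehicle, so the values of Tlr4 and Lbp in these 2 comparisons are not independent.

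Over both genotypes, IIAEK against vehicle ran from -0.30 for Tlr4 (SE 0.19) to 0.27 for Lbp (SE 0.18). None of the 9 passed and none had an unadjusted p under 0.05, against 0% and 3.4% of all genes, and none was free of overlap, against 0.0363%. The interaction, which asks whether the peptide acted differently in the genotypes, ran from -0.42 for Lbp (SE 0.37) to 0.48 for Il1b (SE 0.66). Here too 0 of 9 passed and 0 of 9 had an unadjusted p under 0.05, against 0% and 15.1% of all genes. Without knockout vehicle replicate 3 the interaction of Il1b was -0.13.

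The rest of the pathway was read through lists of genes by role, which hold the 10 genes too, and no gene of any of them passed over all genes for genotype over both treatments. The list of the receptor complex and of genes that handle lipopolysaccharide, with Tlr4, Cd14, Ly96 and Lbp in it, gave 4 above and 7 below 0 among 11 tested (median -0.04), and Aoah, which deacylates lipopolysaccharide, stood at 0.15 (SE 0.13). Bpi was below background on all arrays. Adaptors and kinases gave 6 above and 13 below among 19 (median -0.04). Of these, Tab1, a partner of the kinase TAK1, stood at 0.33 (SE 0.11, unadjusted p = 0.0122, limma adjusted p = 0.79), and Irak4, the kinase recruited by MyD88, at -0.27 (SE 0.11, unadjusted p = 0.0344, limma adjusted p = 0.893). Tirap, the bridge between TLR4 and MyD88, stood at -0.17 (SE 0.10). The 5 NF-kB subunits lay at -0.08 (Relb) to 0.12 (Nfkb1), with 4 above and 1 below 0. They had 4 above and 1 below on vehicle (median 0.31) and 1 above and 4 below on IIAEK (median -0.20). Beside these and the later list counts, 45.5% of all tested genes lay above 0 on vehicle (median -0.03) and 53.0% on IIAEK (median 0.02).

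Brakes gave 7 above and 12 below 0 among 19 tested genes (median -0.04). Tnip2, a partner of A20, stood at 0.21 (SE 0.10) and Tank, a regulator of TRAF signalling, at -0.23 (SE 0.14), beside the -0.36 of Tnfaip3. Target cytokines, chemokines and enzymes gave 7 above and 21 below among the 28 of 37 that could be tested, with a median of -0.17, the lowest of the 7 role lists. On vehicle that list gave the same counts with a median of -0.17, and on IIAEK 12 above and 16 below with a median of -0.07. Its lead gene was Ccl2, a monocyte-attracting chemokine, at -0.68 (SE 0.29, unadjusted p = 0.0405, limma adjusted p = 0.916). The level of Ccl2 was -2.87, -2.63 and -3.36 in knockout mice on IIAEK and -2.92, -2.96 and -4.46 in knockout mice on vehicle. In wild-type mice it was -3.08, -2.32 and -2.89 on IIAEK and -2.81, -2.32 and -1.70 on vehicle. On IIAEK the genotypes overlapped, while on vehicle all 3 knockout arrays lay below all 3 wild-type arrays, with a log2 change of -1.17 (SE 0.42, unadjusted p = 0.0164, limma adjusted p = 0.423). Of all tested genes, 23.7% were free of overlap on vehicle and 11.4% had an unadjusted limma p under 0.05. The lowest array of Ccl2 was knockout vehicle replicate 3, as for Il1b. When it was left out, Ccl2 differed by -0.43 over both treatments and by -0.66 on vehicle. Over both treatments Ccl2 stood at 0.10 on slide 1 alone, at -1.60 on slide 2 alone and at -0.46 without the 2 pancreas-high arrays. Il18, an epithelial cytokine of the IL-1 family, stood at -0.22 (SE 0.13). Il6, Il23a, Cxcl2, Cxcl3, Csf3 and Sele were below background on all arrays, and Il10 among the brakes was as well.

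Other pattern receptors gave 3 above and 10 below 0 among 13 tested genes (median -0.05), with 9 above and 4 below on vehicle (median 0.10) and 1 above and 12 below on IIAEK (median -0.12). Tlr7, a receptor for single-stranded RNA, stood at -0.38 (SE 0.21), Tlr12 at -0.41 (SE 0.27) and Tlr5, the flagellin receptor, at 0.36 (SE 0.24). Immediate early genes, which many stimuli besides NF-kB induce, gave 4 above and 17 below among 21 (median -0.08). Jun, a subunit of AP-1, stood at -0.42 (SE 0.13, unadjusted p = 0.00685, limma adjusted p = 0.69). The level of Jun was 2.58, 2.67 and 2.12 in knockout mice on IIAEK and 2.83, 2.66 and 3.00 in knockout mice on vehicle. In wild-type mice it was 3.05, 2.98 and 3.07 on IIAEK and 3.06, 3.38 and 2.86 on vehicle. On IIAEK its genotypes did not overlap, as for 9.39% of all genes, while on vehicle they did. Fos stood at -0.48 (SE 0.25). For IIAEK against vehicle no gene of a role list passed either. In wild type 4 of 11 receptor and handling genes had an unadjusted limma p under 0.05, 3 down and 1 up, against 13% of all genes. In the knockout 0 of these 11 did, and the other role lists had 0 to 2 such genes in wild type. Over both genotypes 7 of 21 immediate early genes did, all down, against 3.4% of all genes, and the other role lists had 0.

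**Figure D3:**
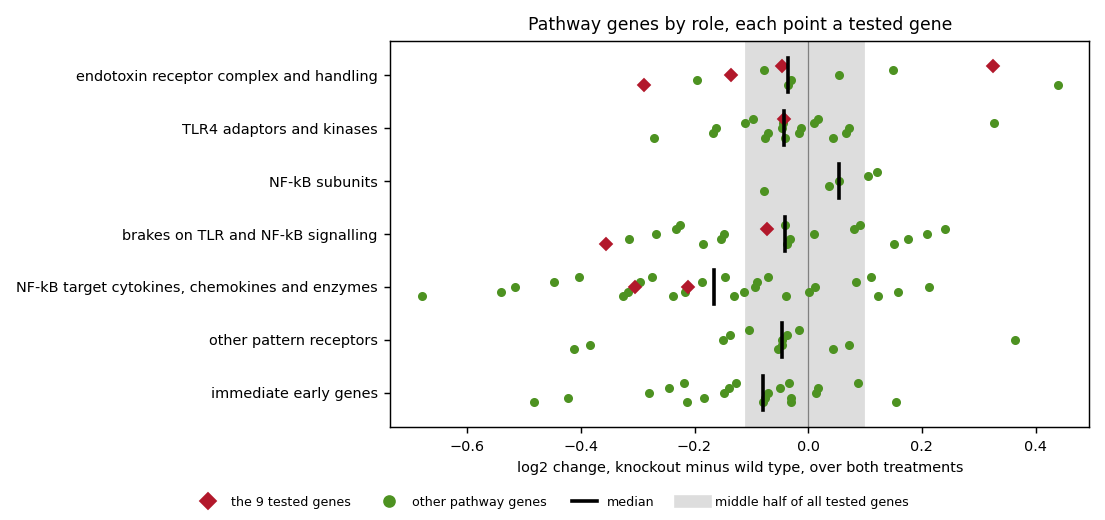
Log2 change, knockout minus wild type over both treatments, of every tested gene in 7 lists by role; red diamonds are the 9 genes described, green circles other genes of the list, black bars list medians and the grey band the interquartile range of all tested genes. List medians lie between -0.17 (target cytokines, chemokines and enzymes) and 0.05 (NF-kB subunits).

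Macrophage and neutrophil genes are given beside these values because Tlr4, Cd14, Il1b and Tnf are expressed by such cells. All 15 monocyte and macrophage genes were above background on every array, and their summed linear level (with each array's 75th percentile at 1) was 86.0 to 93.9 in knockout mice on IIAEK, 73.4 to 101 in knockout mice on vehicle, 93.7 to 98.7 in wild-type mice on IIAEK and 84.6 to 96.2 in wild-type mice on vehicle. For genotype over both treatments 4 of the 15 lay above 0 and 11 below, with a median of -0.05 and a range of -0.17 to 0.74. Of 11 neutrophil genes, 5 were above background on all arrays and Ngp on none, and the summed level was 73.1 to 96.0, 82.8 to 86.7, 66.4 to 94.6 and 86.3 to 100.3 in the same order of groups. The ranges of the groups overlapped for macrophage genes and for neutrophil genes. Of the 8 neutrophil genes that could be tested, 3 lay above 0 and 5 below for genotype over both treatments, with a median of -0.06. They ran from -0.21 to 0.88, and 1 had an unadjusted limma p under 0.05, up in the knockout, against 5.37% of all genes. The mean log2 level of the 11 neutrophil genes was -1.97 on knockout IIAEK replicate 3 and -3.55 to -2.92 on the other arrays.

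Within a treatment, the lists of B and plasma cells and of smooth muscle moved more than these for knockout against wild type. The macrophage median was 0.08 on vehicle and -0.10 on IIAEK, and the neutrophil median was -0.13 and 0.006. Over both treatments the median was -0.02 for B and plasma cell genes and 0.24 for smooth muscle genes. T cell genes stayed near 0, at -0.007 on vehicle and 0.10 on IIAEK. For knockout against wild type, the median change of B and plasma cell genes was 1.60 on vehicle and -1.48 on IIAEK. Smooth muscle genes had a median of 0.67 on vehicle and of -0.25 on IIAEK, and their summed level was 118 to 183 in knockout mice on IIAEK, 124 to 162 in knockout mice on vehicle, 133 to 215 in wild-type mice on IIAEK and 73.7 to 119 in wild-type mice on vehicle. No gene of these 2 lists passed over all genes. The summed level of 14 pancreas genes was 4.51 to 8.44, 5.18 to 236, 6.84 to 2911 and 8.81 to 29.9 in the same order of groups. The part of these tissues in the values of Tlr4, Tnfaip3 and the other genes was not tested beyond leaving out the 2 pancreas-high arrays. Without these arrays Tnfaip3 differed by -0.37 over both treatments and by -0.51 on vehicle, Tnf by -0.43 on IIAEK and Tlr4 by -0.41 on vehicle.

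Over the 12 arrays the 9 tested genes did not vary as a block. The highest correlation between any pair was r = 0.63 for Ly96 with Cd14, followed by 0.53 for Myd88 with Cd14, and the lowest was -0.56 for Nfkbia with Il1b. The 2 brakes, Nfkbia and Tnfaip3, correlated at 0.33. All these values share the arrays' groups, slides and scaling and are a description with n = 12. Searched over 14671 characterised genes on the same 12 arrays, the nearest patterns were Ifi204 for Tlr4 (r = 0.91), Wnt9a for Cd14 (0.92), Supt7l for Ly96 (0.98) and Map3k11 for Myd88 (0.98). They were Cnga2 for Tnf (0.87), Sdhaf2 for Il1b (0.94), Plcd3 for Nfkbia (0.89) and Slc26a2 for Tnfaip3 (0.88). The genes next in order were Gmfg and Zfp60 for Tlr4, Prkci and Zdhhc3 for Cd14, Tacr2 and Slc17a5 for Ly96, and Pgam1 and Krtcap3 for Myd88. For the rest they were Olfr1350 and Prr18 for Tnf, Dleu2 and Eva1a for Il1b, Ddit4 and Slc19a2 for Nfkbia, and Nus1 and Tra2a for Tnfaip3. None of the 9 genes was among another's nearest 3. With 14671 genes searched this was likely beforehand, so it does not show whether the 9 genes vary together.

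**Figure D4:**
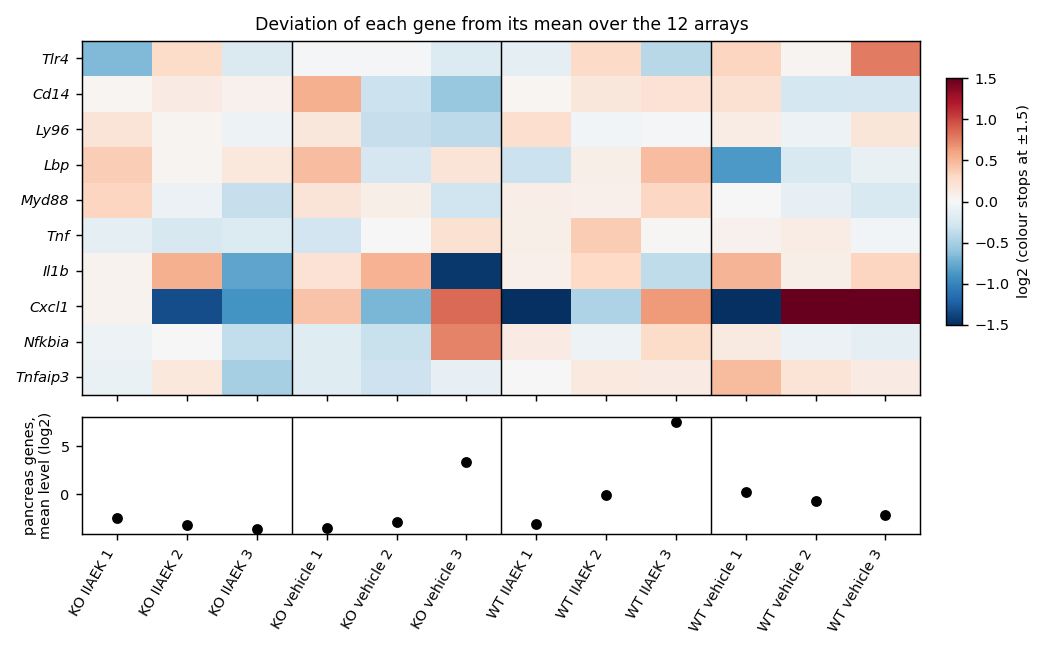
Deviation of each of the 10 genes from its own mean over the 12 arrays (log2, colours stop at ±1.5), with the mean level of 13 pancreas genes on each array below it. Knockout vehicle replicate 3 combines the lowest Il1b with the highest Nfkbia and a pancreas level of 3.34, and the widest colours are those of Cxcl1, for which 4 of the 12 arrays were not well above background.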

How the data were processed

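The authors hybridised Cy3-labelled jejunum RNA of 12 mice to Agilent arrays, 1 colour and 1 mouse each. Per the file headers, the deposited processed signal is an intensity that Feature Extraction 10.7.3.1 made by background subtraction, with no scaling between arrays. The authors' deposited value table is in log2 units, and its values follow the scaled and probe-centred signals with r of 0.9997 to 0.9999 on the 12 arrays, although scale and centring are not stated. Here outlier spots (0 to 4 an array) were removed, spots of a probe averaged, log2 taken and the array's 75th percentile subtracted. No spot was saturated. A table of RefSeq accessions named 32994 of 56605 probes, and 23611 kept their own names. The brightest probe stood for a gene. A gene was tested if all 3 arrays of any group showed its probe well above background. One fit of 4 group means with limma 3.58.1 in R 4.3.3 gave 7 two-sided comparisons, with 8 residual and 3.37 prior degrees of freedom and Benjamini-Hochberg adjustment over all 27565 genes at 0.05. Arrays limit precision by their number, and standard deviations are over 3 arrays.

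The fit was tested on simulated data. Groups came from the titles; a source field gives weeks where the titles give 14 days, and 14 days was used. The 10 genes, the role and marker lists and the rule for names (all 10 genes; of each list those that pass, else up to 3 with the smallest p for genotype over both treatments; the 3 genes of nearest pattern; Akp3 and Alpi) were chosen with earlier results of these data known; Glrp1 and the levels of Ccl2 and Jun are given after their values were seen. Alternatives covered background correction, scaling, filter, probe choice, samples in the fit, the deposited table, slide, replicate number, arrays left out and the variance trend. Clec7a, Defa17, Defa22, Ly6g, Pla2g2a and Trac had no probe under these symbols and were not used here. The genes of nearest pattern to Lbp are not reported here. The labels do not number animals; n = 3 mice per group is from the series' design text.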

Additional observations from a re-analysis of the deposited data

How the results depend on the processing

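No tested gene of the 10 passed the threshold under any alternative in any of the 7 comparisons. The smallest limma adjusted p over the alternatives was 0.228, in the interaction, and 71 of 1422 values of the 9 genes changed sign. Many of the 1422 could not change, since leaving out an array of a group not compared returns the same estimate. Values within 1 slide are not among them, so the share does not measure how stable the signs are. Over these alternatives the difference of Tnfaip3 over both treatments stayed between -0.43 and -0.27, while within slide 2 it was further below 0 than that range. The unadjusted limma p of Tnfaip3 on vehicle was 0.081 without wild-type vehicle replicate 1.

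Counts of all genes called, 0 in 6 comparisons, were 1 with slide as a block and 0 to 1 with 1 array left out for IIAEK in wild type, 14 from the compared groups alone for IIAEK in the knockout, 1 from the compared groups alone and 0 to 2 with 1 array left out for genotype on vehicle, 4 from the compared groups alone, 1 with slide as a block and 0 to 2 with 1 array left out for genotype on IIAEK, and 0 to 1 with 1 array left out for IIAEK over both genotypes. For genotype over both treatments, where 1 gene was called, they were 2 with normexp, 4 with quantile normalization, 0 with genes above background on all 12 arrays, 2 with the mean of a gene's probes, 0 without the 2 pancreas-high arrays, 4 with a variance trend and 0 to 10 with 1 array left out.

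Sign changes without the 2 pancreas-high arrays gave Nfkbia 0.11 for IIAEK in the knockout, Il1b 0.064 on vehicle and -0.32 in the interaction, and Cd14 0.084 and Myd88 0.066 for genotype over both treatments. With 1 array left out, Nfkbia ran from -0.43 to 0.11 for IIAEK in the knockout and from -0.24 to 0.031 for genotype over both treatments. Il1b ran from -0.92 to 0.064 on vehicle and from -0.13 to 0.86 in the interaction, Lbp from -0.087 to 0.31 for genotype on IIAEK, and Cd14 from -0.21 to 0.065 and Myd88 from -0.13 to 0.035 for genotype over both treatments. Beyond the change in samples the cause was not tested.

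The replicate numbers did not visibly pair the arrays. Same-numbered arrays of different groups correlated in their deviations at -0.25 to 0.35, and differently numbered arrays at -0.40 to 0.38. By slide, arrays of different groups correlated at -0.25 to 0.38 on the same slide and at -0.40 to 0.28 on different slides. The main fit held no slide term, and slide as a block was run as an alternative. Replicate 1 lay on slide 1 and replicate 3 on slide 2 in every group, so replicate number and slide are not fully separated. With the replicate block, 0 of the 9 genes passed in each comparison, and 1 gene of all passed for genotype over both treatments and 0 in the others. Signals near background limit Cxcl1, the dimmer Tnf probe and the other Tlr4 probe.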
